A study of Mus musculus with 4 samples.

Results

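Expression of Epcam and of 8 genes of epithelial cell junctions (Cdh1, Cgn, Cgnl1, Tjp1, Ocln, F11r, Jup and Dsp) was examined in leukemic cells with and without added Suv39h1, a histone methyltransferase that places a repressive mark on chromatin. These 9 genes, of 23552 with a value, were selected by symbol with their values in SUV-OE and control already known, so the differences between the groups below are a description and carry no test. All cells were C57BL/6 mouse cells of acute myeloid leukemia (AML) induced by the MLL-AF9 fusion, enriched for the surface marker c-Kit from the bone marrow of moribund mice. Control cells overexpressed eGFP (genotype control-eGFP overexpression, replicates 3 and 4), and SUV-OE cells overexpressed Suv39h1 and eGFP (genotype Suv39h1-eGFP overexpression, replicates 2 and 3). The study used female mice 8 weeks of age. Transduced eGFP+ leukemia cells were sorted and passed to sublethally irradiated recipients, which keep part of their own marrow, and the sources used here do not say that host c-Kit+ cells were removed before RNA isolation. The labels do not say that the libraries came from separate mice, so a p-value here measures only the spread between libraries.

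Epithelial sheets are held together by tight junctions, adherens junctions and desmosomes, in which adhesive membrane proteins are tied through plaque proteins to actin or to keratin filaments. EpCAM is an adhesion glycoprotein of the lateral epithelial membrane that binds claudin-7, and it is widely used to mark epithelial and carcinoma cells. Blood cells build no such sheets, although EpCAM is also known from Langerhans cells and from some erythroid progenitors. Several of the plaque proteins, among them plakoglobin and beta-catenin, also have roles outside junctions.

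The promoters of Epcam and Cgnl1 are shown because these 2 genes differed most between the groups, in opposite directions. The sequences are from RefSeq (build GRCm38.p6) and give the 250 bases before the start site, with the E-box CACCTG or its reverse complement CAGGTG, the core that the SNAIL and ZEB repressors of epithelial genes are known to recognise, in capitals. The Epcam stretch is chr17:87635729-87635978 on the plus strand, and the Cgnl1 stretch is chr9:71771603-71771852 on the minus strand.

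Epcam: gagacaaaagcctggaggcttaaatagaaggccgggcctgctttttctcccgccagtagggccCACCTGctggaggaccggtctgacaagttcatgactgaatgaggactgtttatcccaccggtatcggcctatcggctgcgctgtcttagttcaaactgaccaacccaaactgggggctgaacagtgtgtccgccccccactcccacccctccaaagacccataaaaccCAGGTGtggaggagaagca
Cgnl1: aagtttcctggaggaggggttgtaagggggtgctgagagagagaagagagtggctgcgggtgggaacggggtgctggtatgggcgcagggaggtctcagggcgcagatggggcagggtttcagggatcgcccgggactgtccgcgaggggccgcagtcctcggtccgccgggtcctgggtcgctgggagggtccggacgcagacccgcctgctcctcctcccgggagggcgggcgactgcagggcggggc

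The E-box was counted on both strands in a window of 300 bases, which adds the 50 bases after the start site. Epcam held 2 matches, which begin 187 and 19 bases before the start site, and Cgnl1 held none. Of all 32851 RefSeq promoters, 20.2% held at least 1 match and 2.88% at least 2. F11r and Dsp held 1 match each, and Cgn, Tjp1 and Jup held none. Ocln held 1 in 1 of its 2 promoter windows and 2 in the other, but these windows overlap and share 1 of the matches. The 8 genes with a promoter entry thus included 4 with a match, and Cdh1 had no entry in the table used here. The promoters also differed in composition. Epcam had 11 CpG dinucleotides and a GC content of 57.0%, and Cgnl1 had 30 CpG dinucleotides and a GC content of 73.3%, against a median of 7 CpG dinucleotides over all promoters. A match describes these letters only and is not evidence that a factor is bound.

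Each library gave 1 FPKM value per gene, a measure of fragments that is scaled to exon length and library depth. Reads recovered from the steps between FPKM values totalled 19904917 to 23347915 per library, and 3 reads on 1 kb of exons, taken as the floor, were worth an FPKM of 0.154 to 0.178. These totals exceed the library depth that the steps imply. The 13736 genes whose mean FPKM reached 0.5 were compared with limma on log2(FPKM + 1), a scale that understates the change of low genes. A gene was called where its p-value, adjusted over all tested genes by Benjamini-Hochberg, was under 0.05 and its log2 fold change was 1 or more in size. The targeted gene Suv39h1 measured 12.4 and 12.4 FPKM in control against 75.3 and 81.2 FPKM in SUV-OE (log2 fold change 2.56, standard error 0.11, limma adjusted p = 0.00866), although these reads cannot separate the transgene from the endogenous gene. Kit measured 20.4 and 19.2 FPKM in control against 28.6 and 25.4 FPKM in SUV-OE (log2 fold change 0.43, limma adjusted p = 0.160). With any 1 library left out, or with no filter on low values, 0 of all genes tested were called by limma, and 1166 to 4177 genes had an unadjusted p-value under 0.05.

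Epcam (ENSMUSG00000045394, chr17:87635979-87651129, plus strand, mm10) was low in control and well expressed in SUV-OE. In control it was above the floor at its own length (0.0756 and 0.0872 FPKM in replicates 3 and 4). Control replicates 3 and 4 had 0.328 and 0.494 FPKM, and SUV-OE replicates 2 and 3 had 18.6 and 18.4 FPKM. The groups were far apart, and the SUV-OE libraries lay within each other's counting error. These values rest on 13 and 17 reads in control and on 674 and 666 reads in SUV-OE. The exact Poisson 95% interval, which covers counting error only, ran from 0.174 to 0.560 and from 0.288 to 0.791 FPKM in control, and from 17.2 to 20.1 and from 17.0 to 19.8 FPKM in SUV-OE. The mean was 0.411 ± 0.118 FPKM (SD, n = 2) in control and 18.5 ± 0.181 FPKM (SD, n = 2) in SUV-OE, a ratio of 45.0. On the log2(FPKM + 1) scale the difference was 3.79 (standard error 0.13), the 6th largest increase of 13736 genes, and limma-voom on the recovered reads gave 5.49 (standard error 0.34). Among the 23552 genes, Epcam lay above 40.0% and 42.3% of genes in the control libraries and above 86.3% and 85.9% in the SUV-OE libraries. In bulk RNA, a change in the number of cells that express a gene and a change in its RNA per cell cannot be told apart, here or for any gene below.

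Cgnl1 (ENSMUSG00000032232, chr9:71626509-71771602, minus strand, mm10) showed the opposite pattern and was the most highly expressed of the 9 genes in control. It encodes paracingulin, a plaque protein that links junctions to the actin cytoskeleton and to regulators of small GTPases. Its FPKM was 20.8 and 20.5 in control replicates 3 and 4, and 2.69 and 1.77 in SUV-OE replicates 2 and 3, from 3179, 2712, 374 and 247 reads. Both SUV-OE libraries were far below both control libraries, and the SUV-OE libraries differed from each other by more than their counting error (95% intervals 2.42 to 2.97 and 1.56 to 2.01 FPKM). The mean was 20.7 ± 0.243 FPKM (SD, n = 2) in control and 2.23 ± 0.648 FPKM (SD, n = 2) in SUV-OE, which was 9.27-fold lower. The log2 difference was -2.76 (standard error 0.17) by limma, the 6th largest decrease, and -3.24 (standard error 0.20) by limma-voom. None of the 31-base words in the Cgnl1 transcripts occurred in another gene, and 0.045% of those of Epcam did, which leaves little sequence of these genes shared with others.

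Cgn, which encodes cingulin, the closest relative of paracingulin, did not follow Cgnl1. Its FPKM (ENSMUSG00000068876, chr3:94760069-94786492) was 0.0598, 0.0591, 0.0842 and 0.0374 in control replicates 3 and 4 and SUV-OE replicates 2 and 3, from 7, 6, 9 and 4 reads, and the groups overlapped. The value is uncertain, because 21.6% of its 31-base words were shared with other genes, mostly with BC021767.

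Tjp1 (ENSMUSG00000030516, chr7:65296165-65527781), which encodes ZO-1, the scaffold beneath tight junction strands, measured 0.0790 and 0.129 FPKM in control against 0.375 and 0.245 FPKM in SUV-OE, from 12, 17, 52 and 34 reads. The SUV-OE mean was 2.98 times the control mean, with both SUV-OE values above both control values. Its relative Tjp3 measured 10.96 and 7.29 FPKM in control against 7.83 and 7.66 FPKM in SUV-OE. Tjp3 was higher than Tjp1 in every library, and its groups overlapped.

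The membrane proteins other than EpCAM were barely expressed. F11r (ENSMUSG00000038235, chr1:171437535-171464603), which encodes the adhesion molecule JAM-A, measured 0.135 and 0.289 FPKM in control against 0.381 and 0.613 FPKM in SUV-OE, from 7, 13, 18 and 29 reads. Cdh1 (ENSMUSG00000000303, chr8:106603351-106670246), which encodes E-cadherin, the adhesion receptor of adherens junctions, measured 0.101 and 0.143 FPKM in control against 0.259 and 0.197 FPKM in SUV-OE, from 9, 11, 21 and 16 reads. Both genes were higher in both SUV-OE libraries, with a ratio of means of 2.34 for F11r and 1.87 for Cdh1, and in SUV-OE both were far under Epcam. Ocln (ENSMUSG00000021638, chr13:100496507-100552718), which encodes occludin of the tight junction strand, had 0, 0, 0 and 2 reads, all under the floor of 3 reads (an FPKM of 0.0365 to 0.0421), and no fold change is given.

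Low genes as a whole leaned the same way. Of the 1653 genes with a mean FPKM under 0.5 and a mean of at least 10 reads, 44.9% had both SUV-OE values above both control values, and the median ratio of means was 1.35. A ratio at least as large as that of Tjp1 was found in 16.7% of these low genes, that of F11r in 23.3% and that of Cdh1 in 32.7%. By limma-voom the log2 difference was 1.57 (standard error 0.46) for Tjp1, 1.27 (standard error 0.54) for F11r and 0.89 (standard error 0.47) for Cdh1, and none of these 3 passed the thresholds for a call there.

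Jup and Dsp, which encode plakoglobin and desmoplakin of the desmosome plaque, were expressed in all 4 libraries at levels that did not separate the groups. Jup (ENSMUSG00000001552, chr11:100368958-100397763) measured 9.27 and 6.32 FPKM in control against 9.36 and 7.83 FPKM in SUV-OE, with a log2 difference of 0.14 (standard error 0.20). Dsp (ENSMUSG00000054889, chr13:38151294-38198577) measured 1.87 and 3.11 FPKM in control against 4.13 and 2.29 FPKM in SUV-OE, with a log2 difference of 0.26 (standard error 0.29). For both genes the groups overlapped, and Dsp varied more between the libraries of a group than between the group means. The transcript Gm10129 on the opposite strand covers 499 exon bases of Dsp, and without strand information its reads cannot be told apart from those of Dsp.

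**Figure D1:**
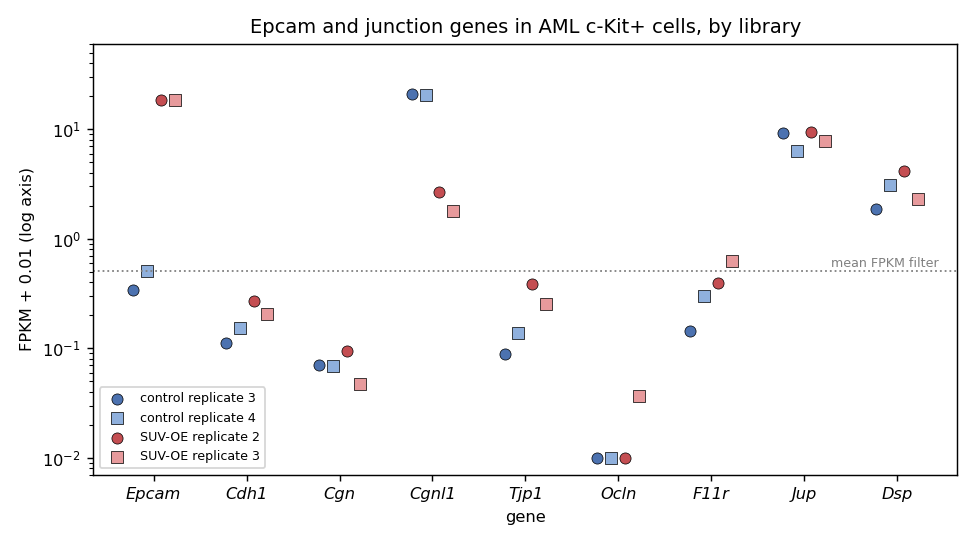
FPKM of the 9 genes (y axis, FPKM + 0.01, log scale) in each of the 4 libraries, with circles and squares for the separate libraries and the dotted line at the mean FPKM of 0.5 used as a filter. Epcam moves from 0.328 and 0.494 in control to 18.6 and 18.4 in SUV-OE, Cgnl1 from 20.8 and 20.5 to 2.69 and 1.77, and the Jup and Dsp libraries of the groups overlap.

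Of the 9 genes, 4 had a mean FPKM of at least 0.5, and Epcam passed this filter only through the SUV-OE libraries. By the thresholds for a call, 1 of the 4 (Epcam) was higher and 1 (Cgnl1) was lower in SUV-OE, where 0.815% of all tested genes were called up and 0.408% were called down. Since the genes were picked with this contrast known, nothing is read from these counts. Without a test, 4 of the 9 genes (Epcam, Tjp1, F11r and Cdh1) had both SUV-OE values above both control values, against 25.7% of all genes. Cgnl1 alone had both below, against 21.9% of all genes, and the other 4 overlapped.

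The order of the genes by FPKM, which is scaled to exon length, differed between the groups. In control it was Cgnl1, Jup, Dsp, Epcam, F11r, Cdh1, Tjp1, Cgn and Ocln, and the libraries of neighbours overlapped among F11r, Cdh1 and Tjp1. In SUV-OE it was Epcam, Jup, Dsp, Cgnl1, F11r, Tjp1, Cdh1, Cgn and Ocln, and the libraries overlapped between Dsp and Cgnl1 and between Tjp1 and Cdh1. Epcam thus stood 4th of the 9 genes in control and 1st in SUV-OE, while Cgnl1 went from 1st to 4th.

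Other protein-coding genes came close to Epcam and to Cgnl1 in level and pattern, by the Euclidean distance of log2(FPKM + 1) over the 4 libraries. Nearest to Epcam was Ifi213, an interferon-inducible gene, at a distance of 0.642, with 0.0301 and 0.0607 FPKM in control against 16.7 and 16.9 FPKM in SUV-OE. Next came Tdrd9, a helicase gene of germline transposon silencing, at 0.892 (0.408, 0.580, 9.70 and 16.7 FPKM). H2-Q6 followed at 1.36 (1.75, 1.36, 12.6 and 20.7 FPKM), although reads of this MHC class I gene may be shared with its close copies. None of the 3 is a junction gene. Nearest to Cgnl1 were Ces1d, a carboxylesterase gene, at 0.638 (19.0, 18.9, 2.31 and 3.18 FPKM), Cenpv at 1.05 (14.5, 15.4, 3.55 and 3.79 FPKM) and Slc22a17 at 1.16 (13.2, 10.7, 3.51 and 2.48 FPKM). These distances span only 4 libraries and are a description.

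The rest of the junction machinery was followed through 7 lists of 117 further genes, of which 94 had a value and 43 had a mean FPKM of at least 0.5. Of the 43, 1 was called up and 0 were called down by limma, and 10 reached an unadjusted p-value under 0.05, 5 of them higher and 5 lower, as did 2842 of all 13736 tested genes. The median log2 fold change was 0.01, against -0.02 over all tested genes. The gene called was Perp, a desmosome membrane protein and p53 target, with 0.568 and 0.779 FPKM in control against 4.06 and 3.20 FPKM in SUV-OE (log2 fold change 1.46, standard error 0.17, limma adjusted p = 0.0434). Its limma adjusted p was 0.186 without control replicate 3, 0.123 without control replicate 4, 0.263 without SUV-OE replicate 2, 0.247 without SUV-OE replicate 3, 0.137 with no filter and 0.0516 with a pseudocount of 0.1.

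Among partners and proteases of EpCAM, 0 of 10 tested genes were called, and the median log2 fold change was 0.19. The tetraspanin gene Cd9 measured 5.43 and 8.67 FPKM in control against 11.8 and 12.8 FPKM in SUV-OE (log2 fold change 0.75, limma adjusted p = 0.167). Cd44, a hyaluronan receptor found in complexes with EpCAM, measured 32.7 and 35.1 FPKM in control against 48.2 and 49.0 FPKM in SUV-OE (log2 fold change 0.51, limma adjusted p = 0.116). For both, the SUV-OE libraries lay above the control libraries, by a difference that did not pass the test. Cldn7, the claudin that binds EpCAM, had 3, 5, 4 and 4 reads. Tjp3 and Cldn7 were chosen for mention with their values in view.

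Of 23 claudin genes listed, 11 had a value, 4 were tested and 0 were called. Cldn15 was the most highly expressed, at 55.4 and 58.8 FPKM in control against 38.6 and 43.2 FPKM in SUV-OE (log2 fold change -0.47, limma adjusted p = 0.149). Cldn13, a claudin of rodents, had 0.530 and 0.0555 FPKM in control against 2.96 and 2.21 FPKM in SUV-OE, from 11, 1, 56 and 42 reads (log2 fold change 1.49, limma adjusted p = 0.0778). By limma-voom on the recovered reads, 58 of the listed genes had a mean of at least 10 reads, and 0 were called down. Called up were Cldn13 (log2 fold change 3.54, limma-voom adjusted p = 0.0452), Perp (2.42, adjusted p = 0.0139) and Zeb1 (2.05, adjusted p = 0.0185). In that fit 510 of all 14276 genes were called up and 157 were called down. Cldn13 reached the mean FPKM of 0.5 and the mean of 10 reads only through the SUV-OE libraries.

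Among the other membrane proteins of tight junctions, 2 of 12 genes were tested and 0 were called. Marveld2, or tricellulin, had a log2 fold change of 0.23 and Jam3 of -0.05. In the tight junction plaque, 0 of 11 tested genes were called and the median was -0.06. Its genes with the largest differences belong to the polarity complexes, namely Pard6a with 4.60 and 5.39 FPKM in control against 3.23 and 3.30 FPKM in SUV-OE (log2 fold change -0.49, limma adjusted p = 0.154) and Mpp5, which encodes PALS1, with 2.57, 3.08, 3.97 and 3.79 FPKM (log2 fold change 0.35, limma adjusted p = 0.243). In the adherens junction list, 0 of 8 tested genes were called, and the median was 0.04. The largest differences there were those of Ctnnal1 (log2 fold change -0.36, limma adjusted p = 0.285) and of Vcl, which encodes vinculin (0.26, limma adjusted p = 0.439).

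In the desmosome list 1 of 4 tested genes, Perp, was called up and 0 were called down, and the median was -0.41. Pkp4, a relative of the plakophilins, had 4.09 and 3.24 FPKM in control against 1.70 and 2.06 FPKM in SUV-OE (log2 fold change -0.69, limma adjusted p = 0.127), so that Perp and Pkp4 differed in opposite directions. Of the transcription regulators of epithelial genes, 0 of 4 tested were called, with a median of 0.19. Klf4 measured 10.3 and 1.11 FPKM in control against 0.665 and 1.72 FPKM in SUV-OE, with control replicate 3 apart from the other 3 libraries (log2 fold change -1.20, limma adjusted p = 0.465). Klf5 had a log2 fold change of 0.40 (limma adjusted p = 0.316). Zeb1, which encodes a repressor of epithelial genes, fell under the filter, with 0.117 and 0.135 FPKM in control against 0.496 and 0.562 FPKM in SUV-OE, from 23, 23, 89 and 101 reads.

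**Figure D2:**
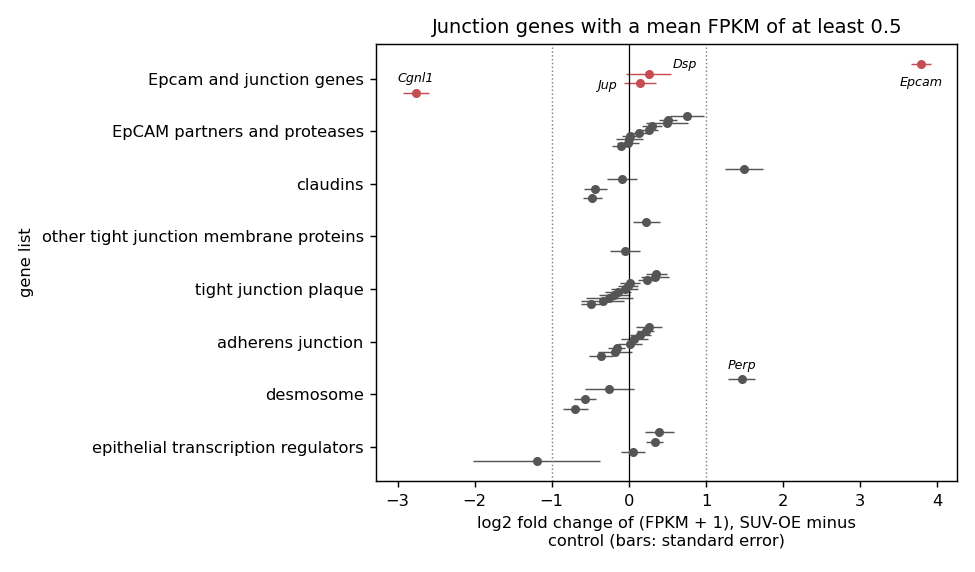
Log2 fold change of FPKM + 1 (x axis, SUV-OE minus control, bars are standard errors) for each gene whose mean FPKM reached 0.5, in rows by gene list, with dotted lines at -1 and 1. Epcam at 3.79 and Cgnl1 at -2.76 lie outside the range of the 43 listed genes, of which Perp at 1.46 was called, while Cldn13 at 1.49 and Klf4 at -1.20 passed a dotted line without a call.

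The 3 nearest tested protein-coding genes on each side of Cgnl1 were taken by position alone. These 6 neighbours had log2 fold changes of -0.13 to 0.29, and none was called by limma. The nearest was Tcf12, which encodes a basic helix-loop-helix transcription factor and lies 71.1 kb from Cgnl1, with a log2 fold change of -0.01 (limma adjusted p = 0.976).

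Markers of other cell types were measured in the same libraries. Of 8 keratins of epithelia, 3 (Krt7, Krt8 and Krt18) had a value, and their summed FPKM was 4.45 and 4.06 in control against 3.80 and 2.89 in SUV-OE. Krt18 made up most of this sum, at 3.45 and 3.43 FPKM in control against 3.34 and 2.57 FPKM in SUV-OE (log2 fold change -0.17, limma adjusted p = 0.562). Krt5, Krt14, Krt15, Krt19 and Krt20 had no row. Of the Langerhans and dendritic cell list, 6 of 8 genes had a value and 1 of 5 tested, Cd74, was called up (limma adjusted p = 0.0488). The FPKM summed over this list was 31.8 and 23.5 in control against 36.4 and 33.4 in SUV-OE. H2-Ab1 was its most highly expressed gene in every library, at 18.6, 11.01, 20.8 and 19.6 FPKM, while Flt3 was lower in both SUV-OE libraries, at 10.3, 9.08, 6.20 and 4.18 FPKM (log2 fold change -0.81, limma adjusted p = 0.133). Cd207, the langerin gene that defines Langerhans cells, had no row.

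All 12 genes of the erythroid list were tested and 1, Ermap, was called up (limma adjusted p = 0.0434), with a list median of 0.79 and a summed FPKM of 36.2 and 166 in control against 123 and 92.8 in SUV-OE, which overlapped. Of the 10 megakaryocyte and platelet genes, 6 were tested and 1, Itgb3, was called up (limma adjusted p = 0.0434), with a list median of 1.15 and sums of 12.9, 19.3, 38.7 and 41.2 FPKM. Of the 8 endothelial genes, 3 were tested and 1, Pecam1, was called up (16.7, 23.3, 70.3 and 64.1 FPKM, limma adjusted p = 0.0405), and Pecam1 made up most of the sums of 19.8, 26.4, 74.9 and 68.1 FPKM. The mast cell list (4 tested, median 0.54) summed to 75.2, 92.6, 165 and 158 FPKM with 0 called, of which Cpa3 made up 21.3, 43.5, 112 and 103 FPKM, while Hdc had 41.6, 38.9, 31.6 and 37.5 FPKM. The B-lymphoid list (7 tested, median 1.92) summed to 18.5, 27.5, 35.8 and 79.4 FPKM with 0 called, and the stromal fibroblast list (1 tested) to 9.56, 8.86, 10.2 and 7.02 FPKM with 0 called. Over the 8 lists no marker was called down, against 0.408% of all tested genes called down and 0.815% called up. Nothing is read from these counts of calls. Markers that went the other way included Flt1 of the endothelial list, under the filter, with 0.556, 0.693, 0.309 and 0.187 FPKM. Gp9 and Gp1ba of the megakaryocyte list had log2 fold changes of -0.15 and -0.09. The Langerhans and dendritic cell, megakaryocyte, endothelial, mast cell and B-lymphoid sums were higher in both SUV-OE libraries, as was Epcam, the keratin sum was lower in both, and the part of these lists in the Epcam and Cgnl1 values was not tested.

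**Figure D3:**
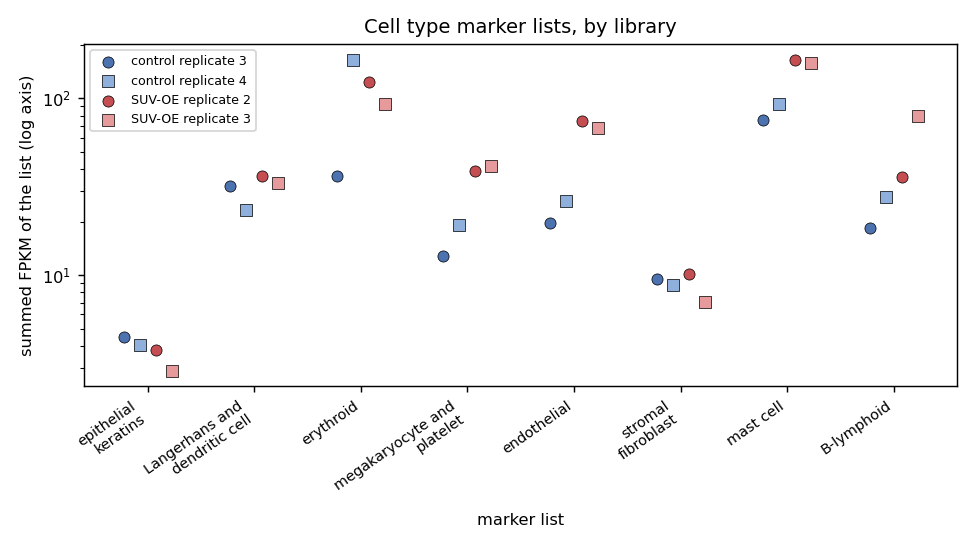
Summed FPKM of 8 marker lists (y axis, log scale) in each of the 4 libraries, with circles and squares for the separate libraries. The epithelial keratins sum to 2.89 to 4.45 FPKM in every library, while the Langerhans and dendritic cell, megakaryocyte, endothelial, mast cell and B-lymphoid sums are higher in both SUV-OE libraries than in both control libraries.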

How the data were processed

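RNA-seq of c-Kit+ AML cells was analysed in 2 control and 2 SUV-OE libraries, all labelled as RNA-seq batch 2. Per the submitters' processing notes and the study's methods, the authors prepared TruSeq RNA v2 libraries (a kit that does not mark strand), made reads with CASAVA 1.8, aligned them to mm10 with TopHat2 and deposited FPKM values, described as made with Cufflinks. The annotation release is not given in the sources used here. The authors called genes with DESeq2, which needs counts. The deposited unit is FPKM, so limma 3.58.1 (R 4.3.3) was used on log2(FPKM + 1), with a mean FPKM of at least 0.5, an intensity trend and the group as the only term.

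Reads were recovered from FPKM steps with GENCODE M21 exon lengths. For 78.5% of genes all values were whole numbers of reads within 0.01, and 4987 further genes, Epcam (2040 instead of 2195 bases) and Dsp among them, were whole at another length. The remaining 67 genes had no whole-number solution. Intervals (exact Poisson, 95%) and floors cover counting error only. Tables and figures were made with pandas 2.3.3 and matplotlib 3.10.9, and 31-base words were compared over GENCODE M21 transcripts.

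The members and lists were chosen with earlier results of these data known. The genes named are the 9 members, Suv39h1 and Kit, in each junction list the genes called and the 2 with the largest absolute log2 fold change, and the 3 genes nearest to Epcam and to Cgnl1 in pattern. Neighbours of Cgnl1 were taken by position, and markers and other genes were named after their values were seen.

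On simulated data for the SUV-OE and control comparison, with 8-fold changes and a dispersion of 0.01, limma called 95% of 199 seeded genes and 10 unchanged genes of 13236. For limma-voom these values were 100% of 194 seeded genes and 1 unchanged gene of 14288. The alternatives were a pseudocount of 0.1, no filter, median-of-ratios scaling, quantile normalization, a mean FPKM of 1 or more, a robust trend, no trend, limma-voom on recovered reads (mean of at least 10 reads) and each library left out in turn. Some results are not reported here.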

Additional observations from a re-analysis of the deposited data

How the results depend on the processing

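With 1 library left out, the lone library of a group is assumed to vary like the others, and 0 genes were called in either direction in each of the 4 fits, over all genes (1166 to 3877 had an unadjusted limma p-value under 0.05), the junction lists and the 9 genes (main counts 112 and 56, 1 and 0, and 1 and 1). With no filter on low values 0 genes were called up and 0 down, in the 9 genes too, where 3 of 9 had an unadjusted p-value under 0.05, as had 16 of 94 listed genes and 4177 of all 23552. With a pseudocount of 0.1, 74 genes were called up and 42 down over all genes, and 0 in the junction lists. limma-voom called 510 up and 157 down of 14276 genes, and 3 up of 58 genes in the junction lists. The causes were not tested. Epcam ranged from 3.71 to 3.88 and Cgnl1 from -2.97 to -2.55 in log2 fold change under 10 alternatives each. They were 5.21 and -3.18 with the pseudocount of 0.1 and 5.49 and -3.24 by limma-voom. Jup ranged from -0.10 to 0.39 and Dsp from -0.06 to 0.58. The direction of Perp (1.33 to 2.42) held under all 12 alternatives. No paired analysis was possible because replicate 3 is the sole number found in both groups. Depth limits Cdh1, Tjp1, F11r, Cgn and Ocln, which had at most 52 reads in a library.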
